A study of Mus musculus with 12 samples.

Results

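The comparison concerned knockdown of LOXL2 in mouse embryonic stem cells that had been treated for 1 day with RA, read here as retinoic acid. It comprised 6 of the 12 arrays of the series, chosen by their labels: 3 of E14 cells transduced with a control short hairpin RNA (shCT, RA, day 1) and 3 of E14 cells transduced with a hairpin against LOXL2 (shLOXL2, RA, day 1). E14 is an established mouse embryonic stem cell line, and all groups shared this line and transduction with a hairpin construct. The other 6 arrays held the same constructs without RA at day 0 (3 shCT, 3 shLOXL2) and served here for comparison and for the estimate of the spread. No group without RA at day 1 was used, so the RA states also differed in day. The labels give 1 construct name per hairpin, and neither the hairpin sequences nor the number of hairpins against LOXL2 are given in the sources used here. Nor is it given whether the arrays within a group represent separate cultures, so p-values below measure the spread among these samples alone, and that spread may be technical.

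LOXL2 is a lysyl oxidase-like enzyme that oxidises lysine side chains, and the family is best known for cross-linking collagen and elastin outside the cell. LOXL2 is also found in the nucleus, where it has been reported to oxidise TAF10, which belongs to TFIID, the general factor that recognises core promoters. Retinoic acid acts through nuclear receptors and pushes embryonic stem cells out of self-renewal, with early activation of Hox genes and of the genes that degrade and bind retinoic acid. The data address which transcripts stood higher or lower in shLOXL2 than in shCT cells once this programme had begun.

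Values are log2 signals, so a difference of 1 is a 2-fold difference, and they are given to 2 decimals per array. Of 41345 transcript clusters, the probe groups of the array, 22180 genes were measured by a cluster of their own. Differences are shLOXL2 minus shCT with RA unless stated otherwise, with the standard error (SE) of limma, a linear model fitted to all genes. A gene is described as not overlapping where all 3 shLOXL2 arrays lay above, or all below, all 3 shCT arrays.

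The arrays with RA were alike in level, with correlations of 0.968 to 0.985 across clusters and medians of 4.62 to 4.68. Within groups they differed along 1 axis that took up 49.4% of the residual variance of the 12 arrays, against 10.7% for the next. With RA, replicate 3 of shCT and replicate 1 of shLOXL2 lay high on it, as did replicate 3 of shCT and replicate 1 of shLOXL2 without RA. Results are therefore given also without these 4 arrays, an alternative chosen after seeing the data. All 11 markers of mouse embryonic stem cells lay above the median gene, with a mean marker level of 9.28 to 9.33 in shCT and 9.29 to 9.30 in shLOXL2 arrays. None of the 11 separated the groups: Pou5f1 differed by -0.05 ± 0.11, Sox2 by -0.17 ± 0.17 and Nanog by 0.00 ± 0.23.

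The knocked-down gene was covered by 2 clusters, both also annotated to the predicted gene Gm21451, so the signal may stem from either. In cluster 17301634 the shCT arrays read 5.85, 5.90 and 6.51 and the shLOXL2 arrays 5.14, 5.30 and 5.10. The groups did not overlap, and the highest control array was replicate 3. The difference was -0.91 ± 0.20, or 53.4% of control. In cluster 17301670 the shCT arrays read 5.77, 5.6 and 6.27 and the shLOXL2 arrays 5.06, 4.69 and 4.64, a difference of -1.08 ± 0.22, or 47.2% of control. Here too the groups did not overlap, which in the lower direction held for 5.21% of all clusters. The exact permutation test of 3 against 3 arrays gave its smallest possible two-sided p of 0.1 for each cluster. Adjusted over all 41345 clusters, the limma p was 1.0 for both, although they ranked 23rd and 15th by unadjusted p (0.00074 and 0.00049). With 1 array left out the differences ran from -1.03 to -0.69 and from -1.22 to -0.89, and without the 4 arrays they were -0.67 (62.7% of control) and -1.02 (49.4%). Without RA the same clusters stood at 67.5% and 89.6% of control. The change of the knockdown difference between the RA states was -0.34 ± 0.28 and -0.92 ± 0.32 (unadjusted p = 0.249 and 0.0136; limma adjusted p = 1.0 for both). Both clusters annotated to Taf10 are shared with Ilk and differed by -0.09 ± 0.13 and -0.01 ± 0.13. Signals this near the array medians may include background, whose level was not set here, so the percentages of control may overstate what remained.

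The differences elsewhere were small. The median absolute difference over all genes was 0.12, below the median SE of 0.16, and the central 95% of genes lay between -0.36 and 0.36. A single gene, Mpc1, exceeded 1 log2 unit, and only in the brighter of its clusters. A difference beyond 1.5-fold was seen in 105 genes (60 higher, 45 lower), and 42 and 34 of these did not overlap. For scale, 1125 genes differed beyond 1.5-fold between shCT cells with RA at day 1 and without it at day 0, where RA and day cannot be told apart, and 159 between the constructs without RA. No gene passed an adjusted p of 0.05 in limma (0% of genes), the smallest being 0.209 for Ptch1. At an unadjusted p under 0.05 stood 1100 genes, or 4.96% of those tested (512 higher, 2.31%, and 588 lower, 2.65%), a share near the threshold itself. Weighting arrays by weights estimated from the spread of these same arrays called 9 genes, and a covariate for the axis within groups 9 (6 shared). That axis was computed from the residuals of these same arrays, so the covariate lowers the spread by construction and leaves the differences unchanged. Every other gene-level fit run and the fit over all clusters called 0. Without replicate 2 of shCT with RA, 720 genes stood under the unadjusted threshold.

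In all, 2770 genes (12.5%) did not overlap. Of these, 1465 (6.61%) stood higher and 1305 (5.88%) lower in shLOXL2, with a median absolute difference of 0.27. If the constructs made no difference, 3 against 3 arrays would still separate in either direction with a probability of 0.1. That is the smallest p of the exact permutation test, so the 2770 are no count of responding genes. The balance depended on scaling: 52.9% stood higher as deposited, 47.9% after a second quantile normalization and 71.2% after centring each array on its median, which moved the median of all genes from 0.01 to 0.05. With 1 array left out, groups of 2 and 3 arrays separated for 2091 to 3363 genes upward and 2005 to 2980 downward, and without the 4 arrays for 5084 and 4450. The split also differed with level: 1087 of the higher genes but 608 of the lower ones had a brighter group at or above the median gene. The shares of 6.61% and 5.88% are the background against which the gene lists are read below, and they are not matched to level. All 16 TFIID subunits measured lay at or above the median gene over the 12 arrays, against 12 of 36 Hox genes.

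The promoters of 3 of the genes with the clearest separation are shown first, since TFIID acts at such sequences. Each is the stretch before the RefSeq start of the gene (build GRCm38.p6), 5′ to 3′ in the direction of the gene. Capitals mark a TATA box (TATAAA, or TTTATA on the other strand) or a GC box (GGGCGG, or CCGCCC). These are Ptch1, which had the smallest p, at chr13:63565736-63565985 on the minus strand; Slc25a20, higher in shLOXL2, at chr9:108661886-108662135 on the plus strand; and Mypn, also higher, at chr10:63203953-63204202 on the minus strand.
Ptch1: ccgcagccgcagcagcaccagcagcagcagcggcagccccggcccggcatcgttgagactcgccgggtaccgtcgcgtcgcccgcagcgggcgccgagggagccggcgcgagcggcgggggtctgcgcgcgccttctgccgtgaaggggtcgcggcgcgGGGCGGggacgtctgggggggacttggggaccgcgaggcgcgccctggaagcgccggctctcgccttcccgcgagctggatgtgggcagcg
Slc25a20: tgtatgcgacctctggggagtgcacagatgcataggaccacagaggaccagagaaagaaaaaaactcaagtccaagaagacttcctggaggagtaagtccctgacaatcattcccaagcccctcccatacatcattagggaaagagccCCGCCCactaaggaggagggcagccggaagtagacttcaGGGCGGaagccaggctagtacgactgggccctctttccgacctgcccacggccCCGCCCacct
Mypn: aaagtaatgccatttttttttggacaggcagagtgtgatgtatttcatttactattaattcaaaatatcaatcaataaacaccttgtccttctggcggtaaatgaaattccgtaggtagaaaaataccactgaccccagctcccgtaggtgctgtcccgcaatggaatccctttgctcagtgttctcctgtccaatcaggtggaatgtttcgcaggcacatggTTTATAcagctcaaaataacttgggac
The Ptch1 window held 1 GC box, starting 91 bases before the start, and no TATA box. The Slc25a20 window held 3 GC boxes, 102, 63 and 10 bases before the start. The Mypn window held TATA box letters only on the strand opposite to the gene (TTTATA), 27 bases before the start, and no GC box. Over windows of 300 bases (250 before and 50 after the start), a TATA box was found in 13.6% and a GC box in 35.7% of all 32851 promoters. Among measured genes the shares were 12.3% and 46.5%. Promoters of genes that stood higher without overlap held a TATA box in 9.52% and a GC box in 55.9%, and those of genes that stood lower in 11.7% and 45.9%. These sets were not matched to level: 1087 of the higher genes but 608 of the lower ones had a brighter group at or above the median gene. The part of level in the shares was not tested. These matches are letters in a window and do not show that a factor binds.

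Values are given for 23 genes in every array: the 10 largest higher and the 10 largest lower differences among genes that did not overlap and were bright enough, plus the 10 smallest p-values. They were picked by these differences, so the sizes describe them and support nothing further. Their limma adjusted p-values ran from 0.209 to 0.972, so none passed the test. With array weights, adjusted p-values of 0.0163 to 0.0414 called Mpc1, Slc25a20, Erbb3, Mypn, Ptch1, Rad51c, AF357355 and Prps2 of the 23. With the axis as covariate, adjusted p-values of 0.00332 to 0.0303 called Slc25a20, Erbb3, Mypn, Ptch1, Rad51c and Prps2, and also Pik3r3, Mob1b and Nap1l1. By its construction that covariate left every difference unchanged and took variance out of the spread. The array weights were likewise estimated from the spread of these same arrays. The lower p-values of both fits are therefore no separate support. The sign of all 23 held with each array left out and without the 4 arrays. This was fixed by the choice of genes whose arrays did not overlap, so it is no support.

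The Hedgehog pathway held 2 of the 23, both lower in shLOXL2. Hedgehog ligands relieve the inhibition that the receptor Ptch1 exerts on Smo, and the Gli factors then act on targets that include Ptch1 and Gli1 themselves. Ptch1 read 8.0, 8.03 and 8.18 in the shCT arrays and 7.03, 7.28 and 7.29 in the shLOXL2 arrays, a difference of -0.87 ± 0.13 (54.7% of control, limma adjusted p = 0.209). Gli1 read 6.21, 6.39 and 6.36 against 5.42, 5.90 and 5.73, a difference of -0.64 ± 0.16 (64.1% of control, limma adjusted p = 0.869). In both genes every shLOXL2 array lay below every control array, and this was also so without RA, where the differences were -0.48 and -0.47. The rest of the pathway did not share this: of 21 genes measured, 2 stood higher and 2 lower without overlap and the median was 0.03. Shh, the ligand, differed by 0.27 ± 0.19 and Iqce, a ciliary regulator, by 0.29 ± 0.14, both higher in all 3 arrays. The values for Smo (0.09 ± 0.16), Gli2 (-0.04 ± 0.16), Gli3 (0.01 ± 0.15) and Hhip, a further target (-0.08 ± 0.23), lay within 1 SE of 0.

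**Figure D1:**
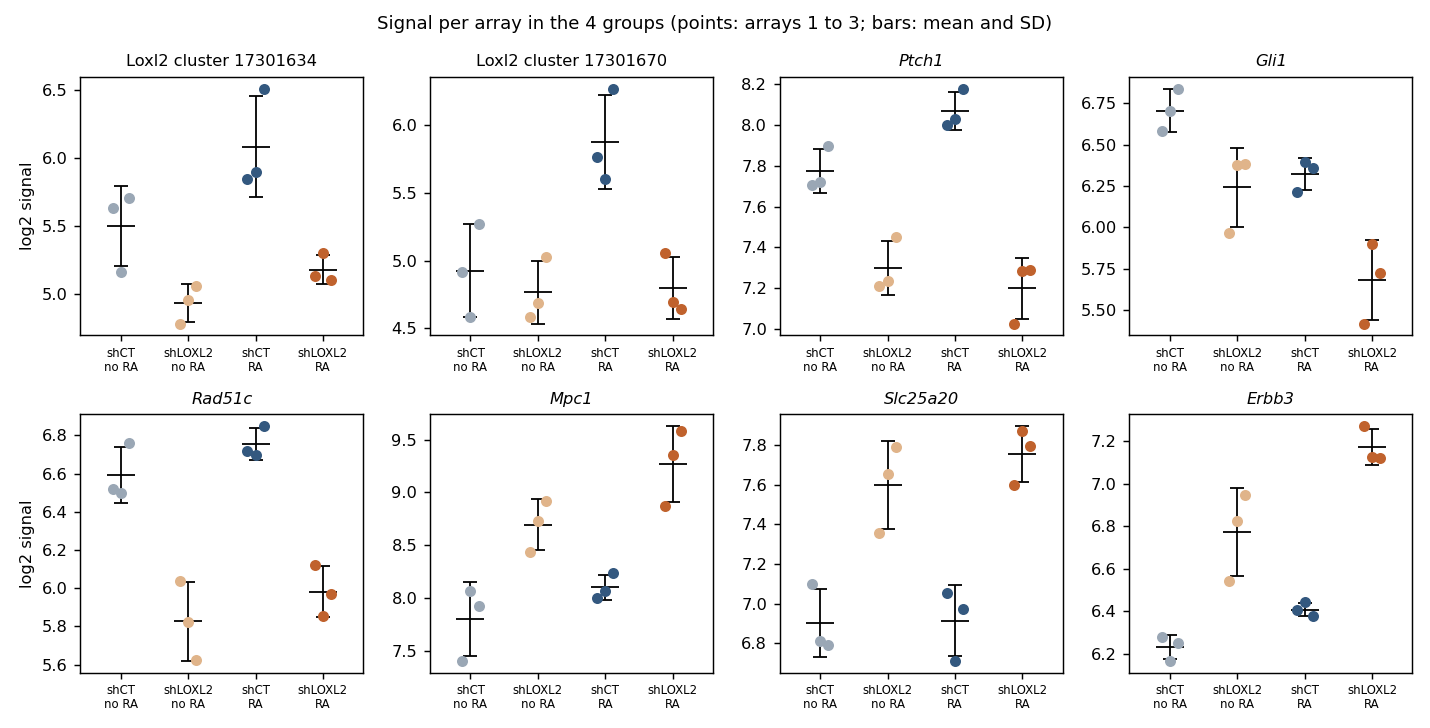
Log2 signal of each array (points), with group mean and SD (bars, n = 3), for both clusters shared by Loxl2 and Gm21451 and for 6 named genes in the 4 groups. With RA, the shLOXL2 arrays lie below all shCT arrays for both clusters and for Ptch1, Gli1 and Rad51c, and above them for Mpc1, Slc25a20 and Erbb3.

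Transporters of the inner mitochondrial membrane stood among the largest higher values. Mpc1 encodes a subunit of the mitochondrial pyruvate carrier, and read 8.0, 8.07 and 8.24 in shCT against 8.87, 9.35 and 9.58 in shLOXL2. Replicate 3 of shLOXL2 was the highest, the groups did not overlap, and the difference was 1.17 ± 0.21 (224% of control, limma adjusted p = 0.318). A dimmer Mpc1 cluster, not used for the gene, differed by only 0.18 ± 0.13, so the clusters of this gene disagreed in size, and their mean differed by 0.67. Mpc1 lies on chromosome 17, and the dimmer cluster, 17333079, is numbered near Psors1c2 of that chromosome (17337193). The brighter one, 17284037, is numbered between Rad51c on chromosome 11 (17267484) and Ptch1 on chromosome 13 (17293607). Whether the brighter cluster reads Mpc1 itself or a related sequence elsewhere was not tested. Slc25a20, which exchanges carnitine and acylcarnitine, read 7.05, 6.71 and 6.98 against 7.60, 7.87 and 7.79 (0.84 ± 0.15, limma adjusted p = 0.318). Slc25a31, an ADP/ATP carrier known from germ cells, read 5.09, 5.13 and 4.87 against 6.16, 5.72 and 5.87 (0.88 ± 0.18, limma adjusted p = 0.583). All 3 shLOXL2 arrays exceeded the controls for each carrier. Of 28 genes of pyruvate and fatty acid entry measured, 4 stood higher and 1 lower without overlap, with a median of 0.10 against 0.01 over all genes. The median was 0.06 without replicate 2 of shCT and 0.05 after a second quantile normalization. Mpc1 and Slc25a20 are among the 4 higher ones, although they were picked by their differences, and the list was chosen with earlier results known. The count is thus no separate support. Besides Mpc1 and Slc25a20, the higher ones were the dehydrogenases Acadm (0.25 ± 0.14) and Hadh (0.16 ± 0.12). The lower one was Etfb, an electron carrier (-0.33 ± 0.15). Cpt1a, which loads fatty acids onto carnitine ahead of Slc25a20, stood at 0.57 ± 0.27 with overlapping arrays.

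Receptor and signalling genes formed a further group. Erbb3, a receptor for neuregulins, read 6.41, 6.44 and 6.38 in shCT and 7.27, 7.12 and 7.12 in shLOXL2, and had among the smallest spreads of the 23. The difference was 0.76 ± 0.12 (170% of control, limma adjusted p = 0.318). The other receptors of the family did not stand with it, Egfr at -0.17 ± 0.12 and lower in all 3 arrays, Erbb2 at -0.06 ± 0.17 and Erbb4 at -0.21 ± 0.20. Of 15 genes of this family and its ligands, 1 stood higher and 2 lower without overlap, with a median of -0.05. Pik3r3, a regulatory subunit of phosphoinositide 3-kinase, read 6.14, 5.81 and 6.48 against 7.31, 6.73 and 6.99 (0.87 ± 0.21, limma adjusted p = 0.869). Mob1b, an adaptor of the LATS kinases of the Hippo pathway, read 6.55, 6.72 and 7.12 against 7.76, 7.34 and 7.41 (0.71 ± 0.22, limma adjusted p = 0.972). Gpr160, an orphan receptor, read 4.91, 4.83 and 5.01 against 5.35, 5.55 and 5.55 (0.57 ± 0.12, limma adjusted p = 0.722). Every one of these 4 genes stood higher in all shLOXL2 arrays.

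The other higher genes had mixed roles. Taf7l, a germ-cell relative of the TFIID subunit Taf7, read 5.25, 4.75 and 5.34 in shCT against 6.23, 5.61 and 5.81 in shLOXL2 (0.77 ± 0.21, limma adjusted p = 0.972). Mypn, which encodes a sarcomere protein, had the smallest SE of the 23: 4.91, 4.99 and 4.86 against 5.6, 5.62 and 5.61 (0.69 ± 0.12, limma adjusted p = 0.318). Zyg11a, named as an adaptor of a cullin ubiquitin ligase, read 5.92, 5.65 and 6.05 against 6.67, 6.67 and 6.45 (0.72 ± 0.13, limma adjusted p = 0.354). None of these pairs of groups overlapped. Elobl, named for its likeness to elongin B, read 6.33, 6.01 and 5.72 against 6.99, 6.54 and 6.69 (0.72 ± 0.22), and its difference was 0.44 without the 4 arrays. Psors1c2 read 5.34, 5.75 and 5.58 against 5.96, 6.49 and 6.51 (0.76 ± 0.21). The limma adjusted p was 0.972 for both of the last pair. Among 16 TFIID subunits measured by a cluster of their own, Taf9 (0.26 ± 0.12) and Taf11 (0.20 ± 0.11) stood higher without overlap and none lower, with a median of 0.11. It was 0.05 without replicate 1 of shLOXL2, 0.07 and 0.18 without replicates 2 and 3 of shCT, and 0.19 without replicate 2 of shLOXL2.

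Lower genes of DNA repair, nucleotide supply and chromatin included Rad51c, Prps2 and Nap1l1. Rad51c, a gene of homologous recombination, read 6.72, 6.69 and 6.85 in shCT and 6.12, 5.86 and 5.97 in shLOXL2, 58.6% of control (-0.77 ± 0.14, limma adjusted p = 0.318). The other recombination genes mostly stood on the other side of 0: 20 of 25 were above it, 5 higher and 2 lower without overlap, with a median of 0.12. That median was 0.05 without replicate 1 of shLOXL2, 0.22 without replicate 3 of shCT and 0.07 after a second quantile normalization. The higher ones included Mre11a, a nuclease of break ends (0.28 ± 0.13), and Fanci, of the Fanconi pathway (0.28 ± 0.13, or 0.15 without replicate 2 of shCT); the second lower one was Rad51d (-0.22 ± 0.12). Prps2 makes phosphoribosyl pyrophosphate for nucleotide synthesis and read 7.18, 7.21 and 7.56 against 6.70, 6.09 and 6.29. Its difference was -0.96 ± 0.22, or 51.5% of control (limma adjusted p = 0.722), the largest lower difference of the 23. Nap1l1, a histone chaperone, read 9.22, 9.09 and 9.28 against 8.63, 8.29 and 8.42 (-0.75 ± 0.21, limma adjusted p = 0.972). All shLOXL2 arrays lay below the controls for the 3 genes.

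Growth regulators and imprinted genes made up most of the remaining lower genes. Ccnd2, cyclin D2, read 8.29, 8.51 and 8.43 in shCT against 7.92, 7.63 and 7.67 in shLOXL2 (-0.67 ± 0.19, limma adjusted p = 0.972). Ddit4, an inhibitor of mTORC1 that responds to stress and hypoxia, read 7.69, 7.69 and 8.52 against 7.26, 7.49 and 7.29 (-0.62 ± 0.26, limma adjusted p = 0.972). Its highest control array was replicate 3, and the difference was -0.35 without it and -0.30 without the 4 arrays. Peg3, a paternally expressed zinc finger gene, read 7.88, 8.05 and 8.01 against 7.71, 6.99 and 6.94, so replicate 1 of shLOXL2 lay close to the controls (-0.76 ± 0.23, limma adjusted p = 0.972). AF357355, a small nucleolar RNA, read 9.21, 9.36 and 9.20 against 8.65, 8.54 and 8.28 (-0.77 ± 0.15, limma adjusted p = 0.479). Dennd10, which encodes a DENN domain protein, read 7.54, 7.64 and 8.05 against 7.32, 6.88 and 7.12 (-0.64 ± 0.25). Got1l1, named as an aspartate aminotransferase relative, read 5.73, 5.53 and 6.45 against 5.38, 5.14 and 5.15 (-0.68 ± 0.25), or -0.41 without replicate 3 of shCT. The limma adjusted p of both was 0.972.

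**Figure D2:**
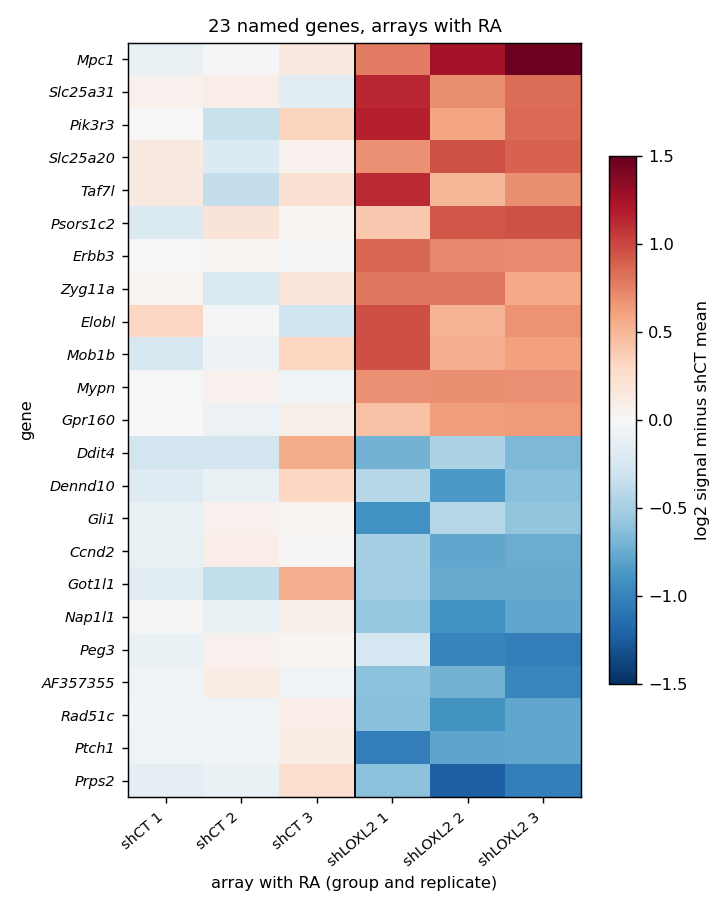
Log2 signal minus the mean of the 3 shCT arrays, for the 23 genes (rows, ordered by difference) in the 6 arrays with RA (columns); red is higher and blue lower. The shLOXL2 columns are red from Mpc1 (1.17) down to Gpr160 (0.57) and blue from Ddit4 (-0.62) to Prps2 (-0.96).

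The same knockdown without RA was measured on a separate set of arrays. Across the 22180 genes, which are not independent replicates, its differences correlated with those under RA at r = 0.235 (rho = 0.195), on different arrays. The RA states are nevertheless not separate evidence: both contrasts use 1 estimate of the spread per gene, and arrays of the same construct and number deviated together across RA states (correlation 0.323 as a random block). Replicate 3 of shCT and replicate 1 of shLOXL2 lay high on the axis in both states. The part of this in the values below was not tested. Without RA, 931 genes (4.2%) stood higher and 895 (4.04%) lower without overlap. Both RA states shared 188 higher genes, 12.8% of those with RA and 20.2% of those without, and 151 lower genes, 11.6% and 16.9%. In opposite directions stood 19 genes that were higher with RA and 49 that were lower with RA. Of the 23 genes, 22 had the same sign without RA and 14 did not overlap there in the same direction. Rad51c stood at -0.77 in either state, Slc25a20 at 0.70 without RA against 0.84 with it, and Mpc1 at 0.90 against 1.17. Ccnd2 was the exception in sign, at 0.02 without RA. The change of its knockdown difference between RA states had the smallest unadjusted p of the 23, 0.0207, and Ptch1 had 0.0456. Over all genes no such change passed the limma threshold (0%), with 652 at an unadjusted p under 0.05 (2.94%) and a smallest adjusted p of 1.0, so no gene is called particular to the RA state.

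**Figure D3:**
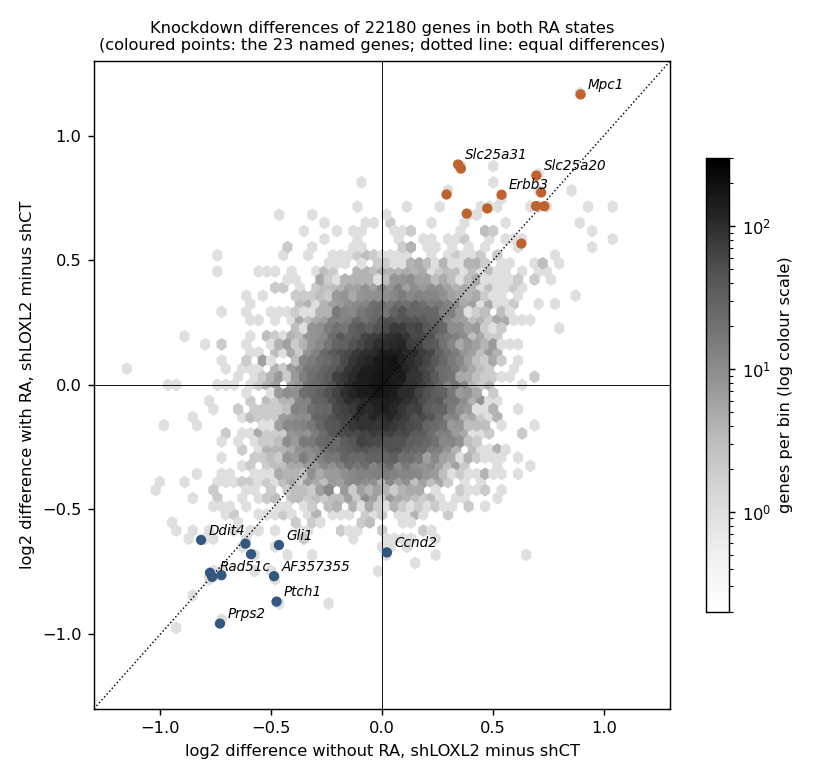
Knockdown differences of 22180 genes without RA (horizontal) and with RA (vertical), both log2 shLOXL2 minus shCT, as gene density on a log colour scale; coloured points are the 23 named genes and the dotted line marks equal differences. Rad51c lies near the line at -0.77 on both axes, while Ccnd2 lies at -0.67 with RA and 0.02 without.

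Hox genes, the transcription factors that retinoic acid activates in order along their clusters, lay mostly below 0. Of 36 measured, 9 (25%) stood lower and 1 higher without overlap, against 5.88% and 6.61% of all genes, and 27 lay below 0. The list's median was -0.14 with RA and 0.02 without. Hoxb8 read 6.38, 6.45 and 6.17 in shCT and 5.87, 5.70 and 5.79 in shLOXL2, and differed by -0.55 ± 0.18. Hoxb6 read 6.59, 6.70 and 6.32 against 6.13, 6.16 and 5.77 (-0.51 ± 0.17). Hoxb2 read 6.52, 6.64 and 6.22 against 6.21, 5.73 and 6.04 (-0.47 ± 0.15), with replicate 1 of shLOXL2 and replicate 3 of shCT nearly equal. Hoxc5 (-0.59 ± 0.20) and Hoxa6 (-0.36 ± 0.14) also stood lower without overlap, and Hoxa4 (0.18 ± 0.15) was the 1 higher gene. Hoxc5 lay below the median gene in both groups. The HoxB cluster held 4 of the 9, with 9 of its 10 genes below 0 and a median of -0.29 against 0.03 without RA. Hoxb1, an early responder to retinoic acid, stood at -0.61 ± 0.22 with overlapping arrays. For scale, Hoxb8 stood 1.98 higher with RA at day 1 than without it at day 0 in shCT and 1.5 higher in shLOXL2. No Hox gene passed the limma threshold (smallest adjusted p = 0.972), and the change between RA states had a smallest unadjusted p of 0.00297 and an adjusted p of 1.0. The list's median was -0.08 without replicate 2 of shCT, -0.23 without the 4 arrays and -0.27 over the members at or above the median gene.

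**Figure D4:**
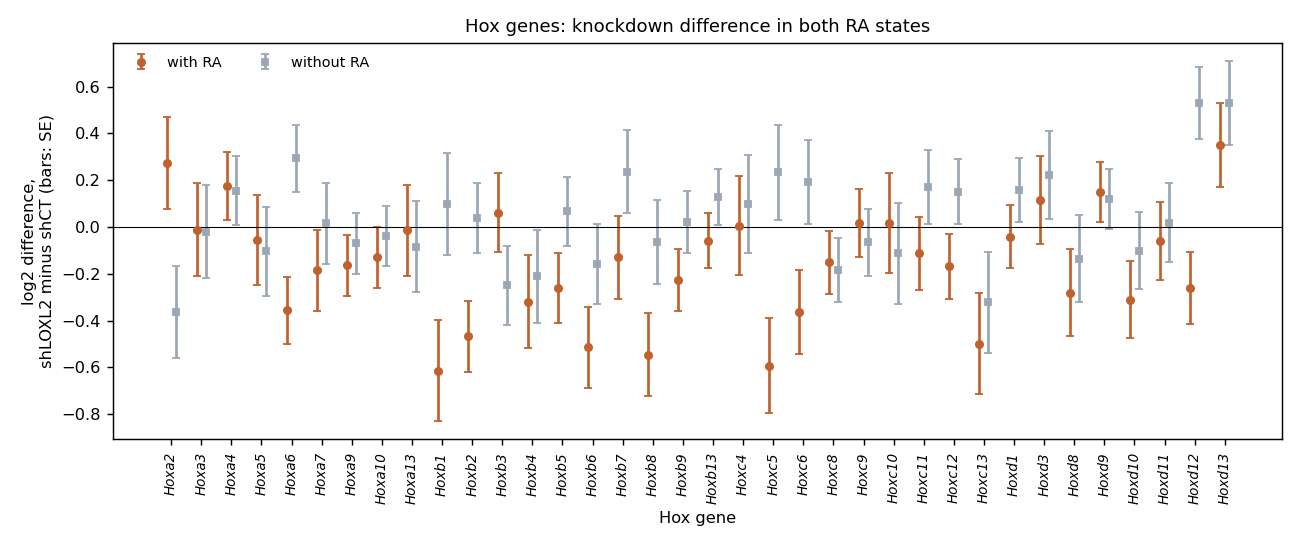
Knockdown difference (log2, shLOXL2 minus shCT) of 36 Hox genes in cluster order, with RA (orange circles) and without (grey squares); bars are SE. With RA 27 genes lie below 0, and 9 of the 10 HoxB genes do.

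Other genes of the response to retinoic acid lay slightly below 0 for the most part. Of 22 measured, 4 stood lower (18.2%, against 5.88% of all genes) and 0 higher without overlap, and 18 lay below 0, with a median of -0.14 with RA and 0.04 without. The 4 were Crabp2, a retinoic acid binding protein (-0.43 ± 0.17), Nr2f2, a nuclear receptor (-0.29 ± 0.14), Stra6, a retinol transporter (-0.27 ± 0.20), and Rara, a retinoic acid receptor (-0.16 ± 0.13, or -0.09 without replicate 2 of shCT). Nr2f2 lay below the median gene in both groups. Without RA, Stra6 stood at -0.54 with no overlap, while Crabp2 (-0.16) and Rara (0.05) overlapped. Cyp26a1, which degrades retinoic acid, was level at 0.01 ± 0.16, and Rarb at -0.02 ± 0.14. Naive pluripotency genes had a median of 0.01, with 3 of 23 higher and 0 lower without overlap. The 3 were Stat3, the effector of LIF (0.44 ± 0.12), Dppa2 (0.25 ± 0.12) and Fbxo15 (0.23 ± 0.12, or 0.15 without replicate 3 of shCT and 0.11 without the 4 arrays). Of 18 core pluripotency genes, 1 stood lower and 0 higher without overlap, 14 lay below 0 and the median was -0.03. In the formative and primed epiblast list, 4 of 17 genes stood lower and 1 higher without overlap. As a whole that list was level, with 8 genes above 0, 9 below and a median of -0.01. The lower ones included Nodal at -0.44 ± 0.14 and the POU factor gene Pou3f1 at -0.30 ± 0.12. No member of these lists passed the limma threshold.

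The Wnt pathway passes signals from secreted ligands through Frizzled receptors to beta-catenin. Of 33 genes measured, 7 stood lower (21.2%) and 2 higher without overlap, and the median was -0.07. The lower ones were the ligands Wnt3 (-0.47 ± 0.13), Wnt4 (-0.33 ± 0.17), Wnt6 (-0.34 ± 0.16) and Wnt7a (-0.24 ± 0.13), the receptor Fzd7 (-0.28 ± 0.11), the secreted antagonist Sfrp1 (-0.56 ± 0.21) and the ligase Rnf43, which removes Wnt receptors (-0.38 ± 0.14). Wnt3 lay below the median gene in both groups. Rnf43's partner ligase Znrf3 stood higher (0.35 ± 0.14, or 0.23 without replicate 1 of shLOXL2), as did Axin2, a feedback inhibitor (0.29 ± 0.12). In the Nodal and BMP pathways the inhibitory Smads stood higher, Smad7 by 0.48 ± 0.21 and Smad6 by 0.29 ± 0.12, while the list of 28 had 2 higher, 1 lower and a median of 0.05. Lineage lists stood slightly below 0, with medians of -0.13 for neural progenitors, -0.13 for primitive streak and mesoderm and -0.22 for endoderm. They moved with single arrays: to -0.07 for neural progenitors without replicate 2 of shCT and -0.08 without replicate 1 of shLOXL2, and to -0.06 for streak and mesoderm without the latter. The endoderm median was -0.07 without replicate 1 of shCT and -0.36 without replicate 3 of shCT. Without the 4 arrays the streak and mesoderm median was -0.02 and that of endoderm -0.36. Lower counts without overlap were 1 of 27, 3 of 19 and 2 of 20, and no member of the 3 lists stood higher. Trophectoderm genes had a median of 0.07, or -0.03 without replicate 3 of shCT and -0.0023 without replicate 1 of shLOXL2, and none of 18 separated.

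Hypoxia and p53 lists, which respond to stress, lay mostly below 0. Of 27 hypoxia and glycolysis genes 6 stood lower (22.2%) and 0 higher without overlap, 24 lay below 0 and the median was -0.15. Without RA 8 stood lower, with a median of -0.19. The 6 included the glycolytic enzymes Pgk1 (-0.37 ± 0.11), Tpi1 (-0.38 ± 0.15) and Pfkl (-0.37 ± 0.16), the glucose transporter Slc2a1 (-0.25 ± 0.12) and Ddit4. The arrays' median levels of this list were 7.69, 7.61 and 8.21 in shCT and 7.33, 7.58 and 7.43 in shLOXL2, so the shCT array high on the axis was also the highest here. The median difference was -0.07 without that array, -0.26 without replicate 2 of shCT and -0.03 without the 4 arrays; the part of the axis in it was otherwise not tested. Of 23 targets of p53, 4 stood lower and 0 higher, with a median of -0.23, or -0.13 without replicate 3 of shLOXL2. Besides Ddit4 these were the antiproliferative gene Btg2 (-0.39 ± 0.14), the kinase gene Plk2 (-0.30 ± 0.15) and the cell cycle inhibitor Cdkn1a (-0.29 ± 0.16). Cdkn1a stood at -0.17 without replicate 1 of shLOXL2 and at -0.12 without the 4 arrays. Genes of the unfolded protein response had 4 of 24 higher, including Herpud1 (0.28 ± 0.14), and 2 lower, with a median of 0.01. The 2 lower ones were Phgdh (-0.34 ± 0.24) and Ddit3 (-0.28 ± 0.16), at -0.23 and -0.15 without the 4 arrays.

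**Figure D5:**
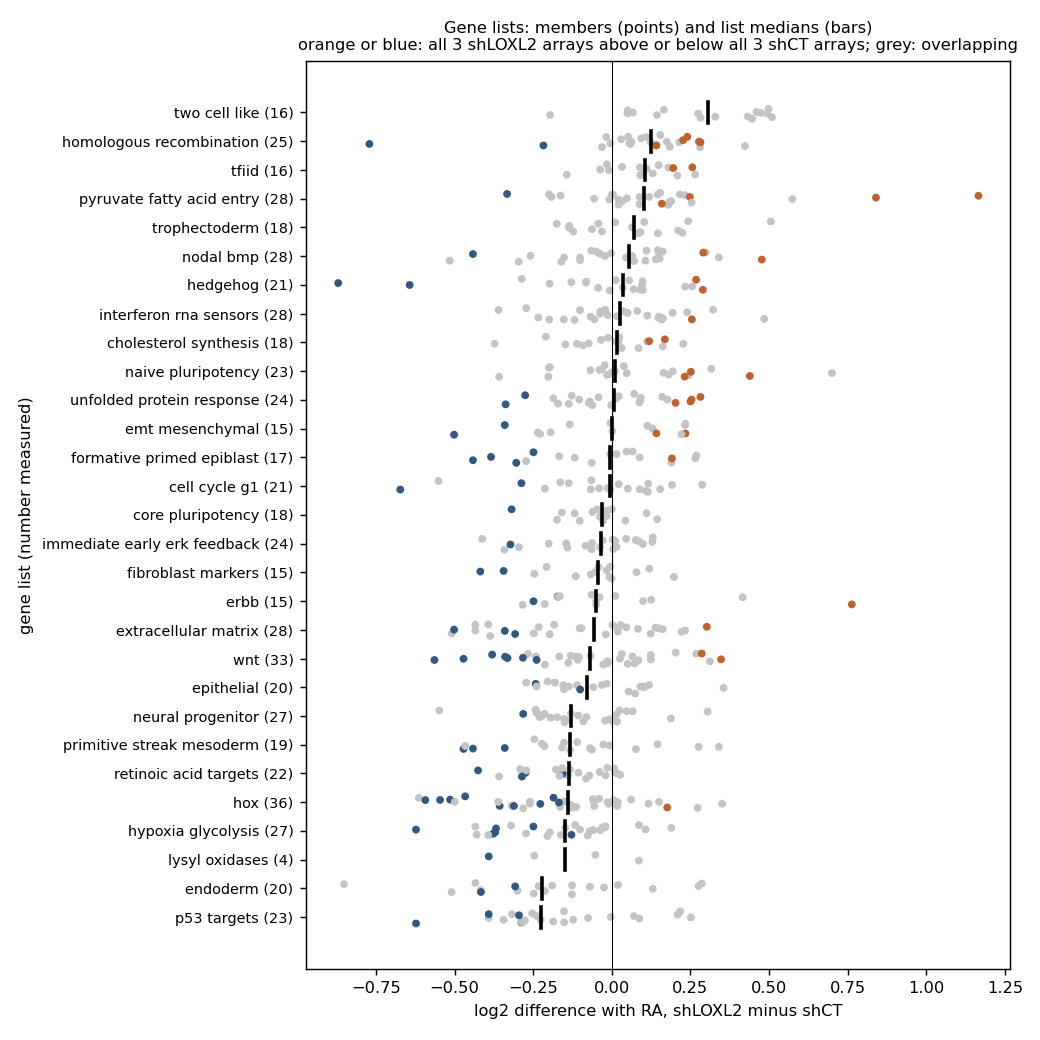
Log2 difference with RA (shLOXL2 minus shCT) of every measured member of 29 gene lists (points) with the list median (bar); orange and blue members separate upward and downward between the 3 arrays of each group and grey ones overlap. List medians run from -0.23 for p53 targets to 0.31 for genes of the 2-cell-like state, and the latter is -0.06 without replicate 1 of shLOXL2.

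Matrix genes and cell-state lists showed few separated members. Among the lysyl oxidases with a cluster of their own, Loxl3 read lower in all arrays (-0.39 ± 0.23, or -0.23 without replicate 2 of shLOXL2 and -0.25 without replicate 2 of shCT), while Lox (-0.25 ± 0.14), Loxl1 (0.09 ± 0.14) and Loxl4 (-0.05 ± 0.14) overlapped. Of 28 matrix genes, 3 stood lower, including the basement membrane collagen Col18a1 (-0.34 ± 0.12) and the gelatinase Mmp2 (-0.50 ± 0.17), and 1 higher. Mmp2 stood at -0.33 without the 4 arrays. Of 15 mesenchymal genes 2 stood higher, Zeb1 (0.14 ± 0.15) and Tgfb1 (0.23 ± 0.16, or 0.15 without replicate 3 of shLOXL2), and 2 lower, with a median of 0.00. Of 20 epithelial genes 2 stood lower, Grhl3 (-0.24 ± 0.13) and St14 (-0.10 ± 0.15, or -0.06 without replicate 1 of shLOXL2). Markers of fibroblasts, a cell type that can be present as feeders, had a mean level of 4.94 to 5.07 in shCT and 4.70 to 5.03 in shLOXL2. Of 12 such markers, 7 lay above the median gene and 2 stood lower without overlap, the collagens Col1a1 (-0.34 ± 0.17) and Col1a2 (-0.42 ± 0.15). Col1a2 lay below the median gene in both groups, with means of 4.99 in shCT and 4.57 in shLOXL2. The part of such cells in the matrix values was not tested, and in bulk samples fewer cells of a type and less RNA per cell cannot be told apart. Genes of the 2-cell-like state, a rare totipotent-like state, had a list median of 0.31, with 15 of 16 above 0 and none separated. Their median level was 6.69 in replicate 1 of shLOXL2, an array high on the axis, and 5.37 to 5.79 in the other 5 arrays. The median difference turned to -0.06 without that array and to -0.08 without the 4 arrays, so its direction rested on 1 array. The lists of interferon and RNA sensing, cholesterol synthesis, immediate early and G1 genes had medians of 0.03, 0.02, -0.03 and -0.01, with at most 2 members separated in 1 direction.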

How the data were processed

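RNA of the 12 samples was extracted with Trizol, and 100 ng each were labelled for Affymetrix whole-transcript arrays, per the labels' protocols. The table deposited by the authors gives a log2 signal for each transcript cluster and array. The submitters' processing notes list RMA, limma and R 3.1.1 without saying what each did, and the near-equal array medians are those of normalized arrays. The background correction and the genome build of the array are not given in the sources used here. The precision is limited by the number of arrays, 3 per group.

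Gene names came from the platform annotation, with symbols updated through a RefSeq gene table, which matched 23328 of 23521 clusters with 1 gene. A further 1814 clusters with several genes and 16010 unnamed ones stayed out of the gene table. For 1082 genes with several clusters the brightest was used, which left 22180 genes. The test was limma 3.58.1 (R 4.3.3, statmod 1.5.0), with 1 mean per group over 12 arrays, Benjamini-Hochberg adjustment over all genes and a threshold of 0.05. Errors of differences are SE of this fit. Single values were also tested by exact permutation (two-sided). The fit was tested on simulated data.

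The genes named were, among those whose arrays did not overlap and whose brighter group lay at or above the median gene (5.06), the 10 largest differences in each direction, then the 10 smallest p-values and up to 3 members per list of 29 gene lists. Numbered, predicted, microRNA, small RNA and odour receptor symbols stayed out of the differences only. Lysyl oxidases, Taf10, Pou5f1, Sox2 and Nanog were always named. These rules gave 76 genes with a cluster of their own, and some of the list members among them are not described above. Other list members were named after their values were seen. The comparison and the lists were chosen with earlier results of these data known. Promoter sequences are RefSeq's (GRCm38.p6) and were found for 17 of the 23 genes given in full. Alternatives were a replicate block, variance trend, dim genes left out, second normalization, centring, mean of clusters, only 6 arrays, array weights, the axis as covariate, a random block, all clusters, a fold of 1.5, leaving out each array and, added later, leaving out 4 arrays.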

Additional observations from a re-analysis of the deposited data

How the results depend on the processing

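No gene was called under the replicate block (0 genes, and 977 at an unadjusted p under 0.05, against 1100 without it). Deviations of same-numbered arrays with RA correlated at -0.31, 0.20 and -0.22, so the numbers were not taken as pairs, and replicate 3 of shCT resembled replicate 1 of shLOXL2 (0.43). Genes called numbered 9 with array weights and 9 with the axis within groups as covariate, and 0 otherwise. The axis and the weights were both taken from the residuals of the same arrays, so neither count is separate support. Genes at an unadjusted p under 0.05 numbered 699 without dim genes (fewer were tested), 2482 with array weights, 2363 with the axis as covariate and 1763 over all transcript clusters (more were tested), and 720 to 1135 with 1 array left out. Genes standing higher without overlap numbered 2220 after centring on array medians, 2504 over all clusters, 5084 without the 4 arrays and 2091 to 3363 with 1 array left out. Those standing lower numbered 537 without dim genes, 2156 over all clusters, 4450 without the 4 arrays and 2005 to 2980 with 1 array left out. Fewer arrays separate more easily. Of 406 list medians under alternatives, 9 moved past the spread between arrays. The median was 0.10 for ERBB genes, -0.27 for Hox genes and 0.086 for lysyl oxidases without dim genes. Without the 4 arrays it was -0.23 for Hox genes and 0.090 for naive pluripotency, against 0.01. For TFIID it was 0.047 after a second quantile normalization and 0.053 to 0.19 with 1 array left out. Where no construction is named, the cause was not tested. Of 1286 values of the 76 named genes under alternatives, 12 had the opposite sign, none of them among the 23 genes given in full, and 11 genes were called under some alternative. Leaving arrays out could not turn the sign of the 23, which were picked as not overlapping.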

Other observations

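AF357355 lies in the imprinted Dlk1-Dio3 region, whose maternal RNAs include long noncoding, small nucleolar and microRNAs. This set was chosen after its values were seen, so it has no test. Of 52 genes measured there, 39 lay below 0 with RA and 45 without, with medians of -0.12 and -0.35. With RA 6 stood lower without overlap (11.5%) and 2 higher, and without RA 11 and 1. Among the 18 at or above the median gene, 17 lay below 0 with RA, with medians of -0.32 and -0.37 in the RA states. Rian, a long noncoding RNA, stood at -0.58 ± 0.25 with overlapping arrays, and AF357426, a small nucleolar RNA, at -0.34 ± 0.14 with all shLOXL2 arrays below the controls. The protein-coding Dlk1 stood at -0.32 ± 0.20 with overlapping arrays.

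By kind of gene, 7.18% of 18964 protein-coding genes stood higher and 5.72% lower without overlap. Of 1926 long noncoding RNAs, 2.65% stood higher and 7.53% lower. Signal level was not matched between the kinds, and the balance of higher and lower genes also differed with level over all genes. The medians of 20 chromosomes, with 521 to 1959 genes each, ran from -0.01 to 0.03 with RA and from -0.02 to 0.03 without.

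The 5 Zscan4 genes measured, which mark the 2-cell-like state and resemble each other closely enough that their clusters may share signal, differed by 0.27 to 0.47 with SE of 0.42 to 0.50. Their median level was 9.95 in replicate 1 of shLOXL2 against 8.35 in both other shLOXL2 arrays, and 8.33, 8.48 and 8.54 in the shCT arrays.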
